A study of Mus musculus with 6 samples.

Results

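Interferon-stimulated genes are the genes that cells switch on after an interferon binds its receptor, and many of their products restrict viruses. Here 31 of them, chosen by name, were followed in spheroids grown from 4T1, a mouse cell line of triple-negative breast cancer. RNA-seq libraries came from spheroids of a LATS1/2 double-knockout (dKO) line (n = 3) and from spheroids of wild-type (WT) cells (n = 3). The labels call the libraries biological replicates, name no drug, interferon or virus in either group, and do not say how many clones or separate cultures stand behind them, so p-values measure the spread between these libraries, which may be technical. All 31 genes were found among the 48820 gene identifiers of the deposited counts, and all 31 passed the filter on low counts.

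LATS1 and LATS2 are the kinases of the Hippo pathway, and they restrain the transcriptional coactivators YAP and TAZ. Type I interferons signal through the receptor chains IFNAR1 and IFNAR2 and the kinases JAK1 and TYK2, which lead to a complex containing STAT2 and IRF9 that binds interferon-stimulated response elements near gene starts. Interferon gamma acts through a separate DNA element. Double-stranded RNA or cytosolic DNA can also switch on part of the same genes through sensors and the factors IRF3 and IRF7, without an interferon having been made first.

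Total counts ran from 38194478 to 42486146 per library in dKO and from 40150225 to 49630116 in WT. Levels are CPM, counts per gene after division by library size, with TMM factors, to a common scale. The values piled up at 4 counts, as if 1 read pair added 4, so 12 counts, 0.243 to 0.314 CPM, served as the floor below which a level is not read. Lats1 had 51.5, 53.0 and 48.0 CPM in dKO 1, 2 and 3, against 158, 146 and 155 CPM in WT 1, 2 and 3. Lats2 had 86.7, 83.3 and 63.5 CPM in dKO, compared with 28.3, 30.5 and 22.7 CPM in WT, which goes against the label; counts per gene do not show small deletions, so every direction below is between libraries labelled dKO and libraries labelled WT. Of 10 epithelial markers, Krt5 was at 0 in every library and 9 were tested (77.8% called, against 57.3% of all tested genes). Cdh1, Krt19 and Krt14 were called higher in dKO, and Epcam, Krt8, Krt18 and Cldn7 lower. The lowest level of Epcam, Krt8 and Krt18 in any library was 271 CPM, but Krt14 had 10.4 CPM in WT 2. Of 12 fibroblast markers, 5 were tested, 2 called higher and 3 lower. Of 8 endothelial markers, 2 were tested and 1 was called lower. Among 22 leukocyte markers, 7 were at 0 in every library (Cd3e, Cd8a, Ms4a1, Ncr1, S100a9, Ly6g and Siglech), and the pan-leukocyte gene Ptprc reached at most 0.418 CPM. All 5 leukocyte markers that could be tested were called, against 57.3% of all tested genes. Csf1r, Cd68, Itgam and Aif1 were higher in dKO, and Cd14 was lower. Itgam had 13, 13 and 20 counts in dKO 1, 2 and 3, little above the floor, and 0 in every WT library. Aif1 had 9, 6 and 0 counts in WT 1, 2 and 3, under the floor. Cd68, a lysosomal macrophage marker, had 17.3, 15.8 and 13.7 CPM in dKO 1, 2 and 3, against 2.25, 1.91 and 2.28 CPM in WT 1, 2 and 3. Adgre1, which encodes F4/80, had 2.12, 2.53 and 0 CPM in dKO and was at 0 in every WT library. The summed level of the leukocyte list was 216, 216 and 84.4 CPM in dKO, compared with 20.7, 54.5 and 16.6 CPM in WT. Csf1r, a macrophage receptor gene, made up most of it in dKO, at 188, 190 and 62.7 CPM, against 3.55, 14.2 and 1.01 CPM in WT. In both the leukocyte sum and many interferon-stimulated genes, dKO 3 lay below the other dKO libraries. WT 2 lay below the other WT libraries in many interferon-stimulated genes, but above them in the leukocyte sum. Results are therefore given library by library. Any part of the leukocyte markers in the results below was not tested. In bulk spheroids, fewer cells of a type and less RNA per cell cannot be told apart.

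Of the 31 genes, 11 were called higher in dKO, from 1.504-fold for Stat2 to 13.6-fold for Ifit2, with Rsad2 beyond that but near the floor in WT; 4 were called lower and 16 did not pass the test. In the edgeR quasi-likelihood test, adjusted over all tested genes, 15 of the 31 genes (48.4%) were called at an adjusted p under 0.05, against 57.3% of all 15807 tested genes. Of these, 11 were higher in dKO, where 28.6% of all genes were called higher, and 4 were lower, where 28.7% of all genes were called lower. The share of called genes was thus below the background of this comparison, and the number of calls did not set the list apart. The median log2 fold change of the 31 genes was 0.59, against -0.01 for all tested genes, and single values ran from -1.16 to 6.32. This median was 0.27 without dKO 2, and 0.24 when a mean of at least 5 CPM was required or counts were divided by 4. Among the called genes, 9 were higher and 2 lower by at least 2-fold. For 15 of the 31 genes no dKO library fell within the WT range or the reverse, as was so for 65.6% of all tested genes. Levels were low: 16 of the 31 genes averaged under 10 CPM in both groups.

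**Figure D1:**
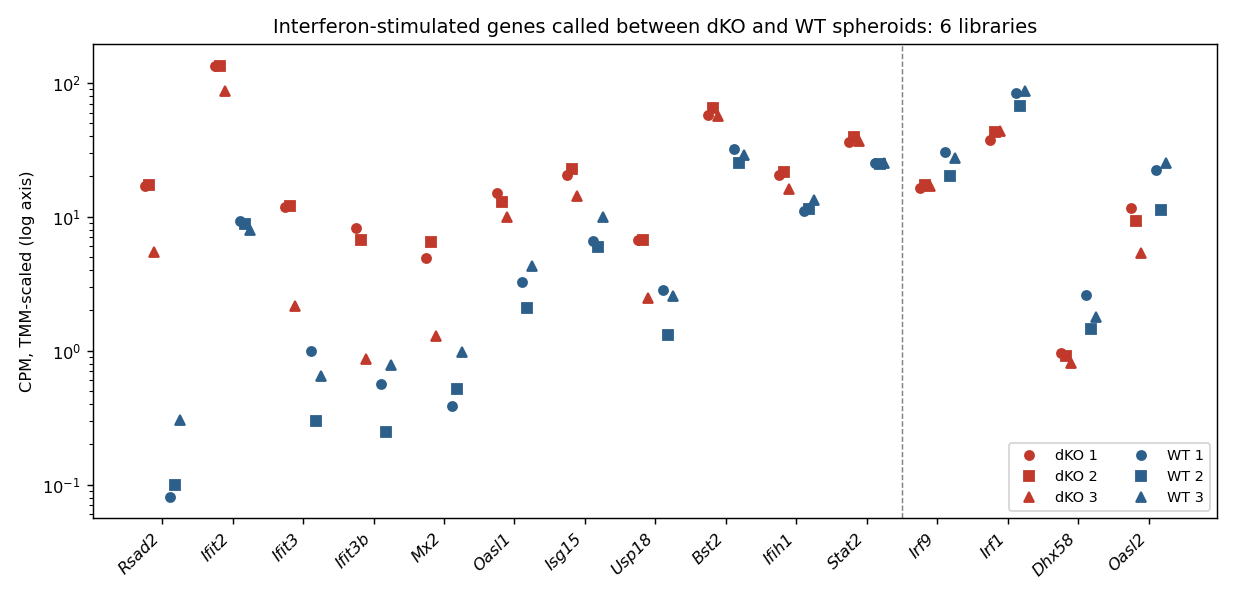
The 15 interferon-stimulated genes called between the groups, with CPM on a log axis and 1 point per library (dKO in red, WT in blue; circle, square and triangle are replicates 1, 2 and 3). The 11 genes left of the dashed line were higher in dKO and the 4 to its right were lower; the red triangle of dKO 3 lies under the other dKO points for Rsad2, Ifit3, Ifit3b, Mx2 and Usp18.

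The IFIT genes, whose tetratricopeptide-repeat proteins bind foreign RNA, were all higher in mean in dKO, with 3 of 4 called and a median fold change of 3.51 on the log2 scale. Ifit2 (chromosome 19, 34550694 to 34576419, GRCm38) had 135, 133 and 87.3 CPM in dKO 1, 2 and 3, against 9.23, 8.83 and 8.02 CPM in WT 1, 2 and 3. All dKO libraries were well above all WT libraries, and the fitted log2 fold change ± SE was 3.76 ± 0.18 (edgeR adjusted p = 5.35e-07). Ifit3 had 11.8, 11.99 and 2.16 CPM in dKO, compared with 0.993, 0.298 and 0.647 CPM in WT (log2 fold change 3.72 ± 0.72, edgeR adjusted p = 0.00273). Ifit3b, its near-identical relative, had 8.27, 6.73 and 0.861 CPM in dKO, compared with 0.568, 0.248 and 0.776 CPM in WT. The Ifit3b log2 fold change was 3.30 ± 0.81 (edgeR adjusted p = 0.00861). For both genes the ranges did not overlap, but dKO 3 lay close to the WT libraries, and its Ifit3b level was little above that of WT 3. WT 2 was at or under the floor in both, with 12 counts of Ifit3 and 10 of Ifit3b. The sizes of these fold changes rest on 91 and 74 counts over the WT libraries. Annotated transcripts of Ifit3 and Ifit3b were 98.0% identical over 1697 aligned bases, so the split of reads between them is uncertain.

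Ifit1, the family member that binds RNA lacking cap methylation, had 18.4, 16.6 and 3.70 CPM in dKO 1, 2 and 3, against 4.06, 3.27 and 6.27 CPM in WT 1, 2 and 3. Its ranges overlapped because dKO 3 fell among the WT libraries, and its log2 fold change of 1.51 ± 0.57 did not pass (edgeR adjusted p = 0.0548). Without dKO 3 the value was 1.95 and was called (edgeR adjusted p = 0.00059). The 4 genes lie within 99.3 kb of chromosome 19 that hold 6 protein-coding genes in all. The other 2, both outside the list and chosen for their position, were also called higher, where 28.6% of all tested genes were called higher. Ifit1bl1 had 1.96, 1.97 and 1.02 CPM in dKO, compared with 0, 0 and 0.151 CPM in WT (edgeR adjusted p = 0.0027). Ifit1bl2 had 1.81, 2.85 and 1.47 CPM in dKO, compared with 0.203, 0.149 and 0.0862 CPM in WT (edgeR adjusted p = 0.00027). WT levels of both neighbours were at or under the floor in every library.

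Of the other antiviral effectors, Rsad2 and Bst2 were both called higher. Rsad2 (chromosome 12, 26442746 to 26456452) encodes viperin, an enzyme that makes a chain-terminating nucleotide. It had 644, 700 and 235 counts in dKO 1, 2 and 3, or 16.9, 17.2 and 5.47 CPM, against 4, 4 and 14 counts in WT 1, 2 and 3, or 0.0811, 0.0992 and 0.302 CPM. Rsad2 was thus clear in every dKO library and at or near the floor in every WT library. Its log2 fold change of 6.32 ± 0.64 was the highest among the 31 genes (edgeR adjusted p = 6.28e-05), but its size rests on 22 counts over the WT libraries, and without WT 3 it was 7.15. Bst2, which encodes tetherin, a membrane protein that holds budding virions at the cell surface, had 57.7, 65.4 and 56.7 CPM in dKO, compared with 32.2, 25.1 and 28.8 CPM in WT. All 3 dKO libraries were close together and above WT, with a difference of 1.06 ± 0.11 on the log2 scale (edgeR adjusted p = 5.78e-05).

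Both genes of the ISG15 system were called higher. Isg15 encodes a ubiquitin-like modifier, and Usp18 the protease that removes it and that also damps signalling at the receptor. Isg15 (chromosome 4, 156199424 to 156200818) had 20.4, 22.8 and 14.3 CPM in dKO 1, 2 and 3, against 6.61, 5.90 and 10.0 CPM in WT 1, 2 and 3 (log2 fold change 1.35 ± 0.24, edgeR adjusted p = 0.00128). Usp18 had 6.75, 6.73 and 2.47 CPM in dKO, compared with 2.82, 1.31 and 2.54 CPM in WT (log2 fold change 1.25 ± 0.44, edgeR adjusted p = 0.0353). The Isg15 groups did not overlap, whereas the Usp18 level of dKO 3 lay below those of WT 1 and WT 3. The Usp18 call was lost when any of dKO 1, dKO 2, WT 2 or WT 3 was left out, with edgeR adjusted p values of up to 0.118.

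**Figure D2:**
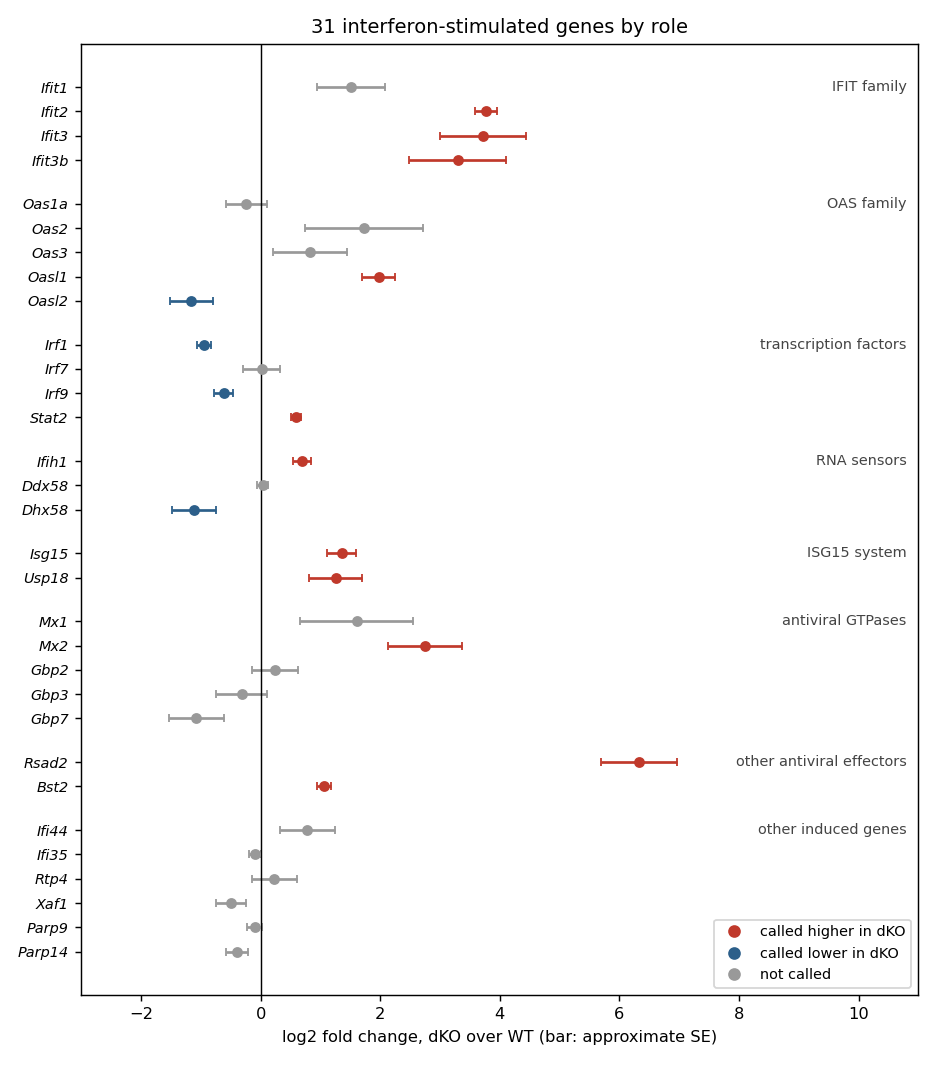
Fitted log2 fold change, dKO over WT, of the 31 interferon-stimulated genes grouped by role (x axis), with bars for the approximate SE; red is called higher, blue called lower and grey not called. The IFIT, ISG15 and other antiviral effector groups lie right of 0, the OAS, transcription factor and RNA sensor groups span both sides, and the 6 other induced genes are all grey.

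Promoters of some called genes hold the letters that the complex containing STAT2 and IRF9 is known to read; a match is a description of the sequence, not a bound site. Upstream of the start, 250 bases of RefSeq promoters (GRCm38.p6) were searched on both strands for the letters GAAA, NN and GAAA in a row (N is any base), the core of the interferon-stimulated response element, which 3.46% of 27025 genes held. Of the 31 genes, 23 had a promoter entry, and 12 of these held the core: 6 of 9 genes called higher, 0 of 3 called lower and 6 of 11 not called. Genes with this core are common among interferon-stimulated genes by their nature, and uncalled genes of the list held it too. The 6 genes called higher with a match are shown, so that the number and order of the cores can be compared; capitals mark the core, and TTTC, NN and TTTC is the same core read on the other strand.
Rsad2, chr12:26456538-26456597, minus strand: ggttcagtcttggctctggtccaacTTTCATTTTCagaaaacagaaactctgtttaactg
Ifit3, chr19:34583348-34583441, plus strand: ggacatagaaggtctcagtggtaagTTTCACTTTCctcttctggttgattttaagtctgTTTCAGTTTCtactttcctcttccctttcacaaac
Isg15, chr4:156200850-156200921, minus strand: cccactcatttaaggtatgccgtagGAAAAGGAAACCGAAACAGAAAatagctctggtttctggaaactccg
Bst2, chr8:71537562-71537627, minus strand: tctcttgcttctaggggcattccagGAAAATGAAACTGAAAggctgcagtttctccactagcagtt
Stat2, chr10:128270251-128270310, plus strand: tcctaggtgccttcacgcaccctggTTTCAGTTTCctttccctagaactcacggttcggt
Ifit3b (chr19:34607744-34607837, plus strand) held the same stretch as Ifit3, identical in 94 of 94 bases. Isg15 had 3 overlapping matches in a row and Bst2 had 2, whereas Rsad2 and Stat2 had 1 each. Ifit2, Oasl1 and Ifih1 were called higher with no match in this window, which says only that these letters are not there. The interferon gamma element TTCNNNGAA was in the window of 5 of 23 genes, against 8.13% of all genes, and the letters GGAATG, a core of the sites bound by the TEAD partners of YAP and TAZ, in that of 2 of 23, against 14.4%. In Bst2 the interferon gamma match overlaps the first interferon-stimulated core, and the GGAATG match, read on the other strand, lies just before that core and overlaps the interferon gamma match.

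The OAS family is named for enzymes that make short oligoadenylates, which switch on an RNA-cutting nuclease. Counts do not show whether each member has this activity. The family was split, with 1 of 5 higher, 1 lower and 3 not called. Oasl1 (chromosome 5, 114923240 to 114937915) had 15.05, 12.8 and 10.0 CPM in dKO 1, 2 and 3, against 3.26, 2.08 and 4.29 CPM in WT 1, 2 and 3 (log2 fold change 1.97 ± 0.28, edgeR adjusted p = 0.000336). Oasl2 (114896936 to 114912234) had 11.6, 9.24 and 5.33 CPM in dKO, compared with 22.2, 11.2 and 25.1 CPM in WT (log2 fold change -1.16 ± 0.36, edgeR adjusted p = 0.0237). These adjacent genes, within 41.0 kb, therefore differed in opposite directions, with clear separation for Oasl1 and overlap for Oasl2, where WT 2 lay below dKO 1. The Oasl2 call was lost without any of dKO 2, dKO 3, WT 1 or WT 3, with edgeR adjusted p values of up to 0.0736. Annotated transcripts of the pair were 62.3% identical over 2115 aligned bases, far less alike than those of Ifit3 and Ifit3b. Oas1a, Oas2 and Oas3 had log2 fold changes of -0.24, 1.73 and 0.82 and were not called. Oas2 had 2.12, 1.25 and 1.07 CPM in dKO, compared with 1.01, 0 and 0.302 CPM in WT, so the groups were just apart, and the gene was called without WT 1 (edgeR adjusted p = 0.0376).

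Among the antiviral GTPases, 1 of 5 was called. Mx2, a dynamin-like GTPase gene that the annotation lists as a polymorphic pseudogene in the reference strain, had 4.89, 6.46 and 1.28 CPM in dKO 1, 2 and 3, against 0.385, 0.521 and 0.970 CPM in WT 1, 2 and 3. The groups were apart, although dKO 3 was only slightly above WT 3, and the log2 fold change was 2.74 ± 0.62 (edgeR adjusted p = 0.00458). Mx1, which lies with Mx2 within 114 kb of chromosome 16 with Fam3b between them, stayed between 0 and 0.541 CPM. It had 3 libraries at or under the floor. The guanylate-binding genes Gbp2, Gbp3 and Gbp7, which are strongly induced by interferon gamma, had log2 fold changes of 0.24, -0.32 and -1.08, with overlapping ranges and no call. Gbp7 was called lower when dKO 2 or WT 2 was left out (edgeR adjusted p = 0.0428 and 0.0464).

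The RNA sensors, helicases that recognise viral RNA in the cytosol, gave 1 gene higher, 1 lower and 1 not called. Ifih1, which encodes MDA5, had 20.3, 21.5 and 16.1 CPM in dKO 1, 2 and 3, against 11.01, 11.4 and 13.4 CPM in WT 1, 2 and 3 (log2 fold change 0.69 ± 0.15, edgeR adjusted p = 0.004). Dhx58, which encodes LGP2, a helicase that modulates the other two, had 0.968, 0.909 and 0.815 CPM in dKO, compared with 2.60, 1.44 and 1.79 CPM in WT (log2 fold change -1.11 ± 0.36, edgeR adjusted p = 0.0271). Neither gene overlapped between groups, but the Dhx58 call was lost without any single library except WT 2, with edgeR adjusted p values of up to 0.127. Exons of Dhx58 overlap those of an annotated antisense gene over 141 of 3272 bases, and without known strand use reads from that stretch cannot be told apart. Ddx58, which encodes RIG-I and had the highest level of these sensors per kb of exon in both groups, had 68.6, 66.1 and 57.3 CPM in dKO, compared with 61.5, 59.8 and 66.2 CPM in WT. Its ranges overlapped and its log2 fold change was 0.03 ± 0.09 (edgeR adjusted p = 0.777).

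The transcription factors of the response also moved apart. Stat2 had 36.2, 39.7 and 37.0 CPM in dKO 1, 2 and 3, against 25.2, 24.7 and 25.2 CPM in WT 1, 2 and 3 (log2 fold change 0.59 ± 0.09, edgeR adjusted p = 0.000494). Irf9, its DNA-binding partner, had 16.4, 17.4 and 17.0 CPM in dKO, compared with 30.2, 20.02 and 27.6 CPM in WT (log2 fold change -0.62 ± 0.16, edgeR adjusted p = 0.00813). Irf1, a factor induced early by interferon gamma, had 37.2, 43.1 and 43.4 CPM in dKO, compared with 83.5, 67.2 and 87.3 CPM in WT (log2 fold change -0.94 ± 0.12, edgeR adjusted p = 0.000136). The groups were apart for all 3 of these factors, with Stat2 higher and Irf9 and Irf1 lower in every dKO library. Irf7, which amplifies interferon production, had 7.95, 8.13 and 5.03 CPM in dKO, compared with 8.09, 4.04 and 8.75 CPM in WT. Its groups covered nearly the same range, and its log2 fold change was 0.01 ± 0.31 (edgeR adjusted p = 0.975). Exons of Irf1, Irf7 and Irf9 overlap those of other annotated genes by 45 to 135 bases.

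The other 6 genes were Ifi44, Ifi35, Rtp4, Xaf1, Parp9 and Parp14, and none of them was called by edgeR or by DESeq2, nor had an unadjusted edgeR p under 0.05. Their log2 fold changes ran from -0.50 for Xaf1, an apoptosis-linked gene, to 0.78 for Ifi44. Ifi35 had 22.8, 24.6 and 24.3 CPM in dKO 1, 2 and 3, against 27.4, 25.2 and 24.1 CPM in WT 1, 2 and 3. Parp9 and Parp14, ADP-ribosyltransferase family genes, averaged 32.5 and 23.3 CPM in dKO, compared with 34.8 and 30.9 CPM in WT. Without WT 2, Parp14 was called lower, with a difference of -0.58 on the log2 scale (edgeR adjusted p = 0.00901).

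**Figure D3:**
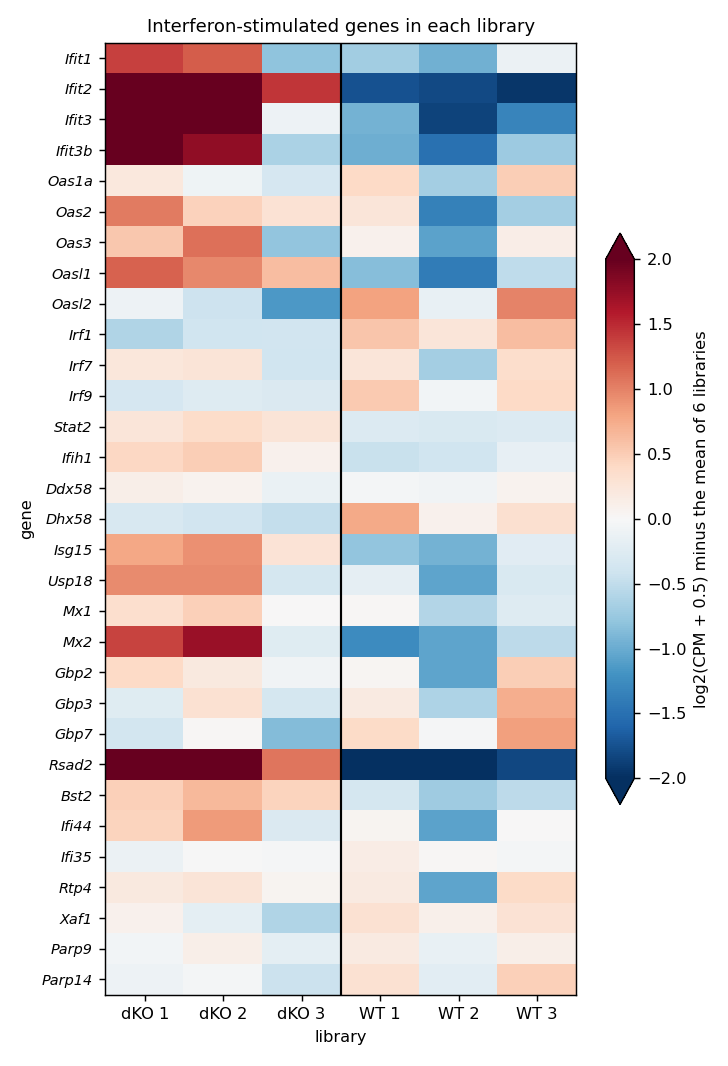
Each of the 31 interferon-stimulated genes (rows, in role order) in each library (columns, dKO left and WT right), as log2(CPM + 0.5) minus the mean of the 6 libraries; colours saturate at -2 and 2. The dKO 3 column is paler or bluer than dKO 1 and dKO 2 in most rows, and the WT 2 column is bluer than WT 1 and WT 3 in most rows.

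Most of the 31 genes moved together between libraries of the same group. In dKO 3, 27 of the 31 genes (87.1%) were at their lowest among the dKO libraries, against 37.4% of all tested genes. In WT 2, 26 genes (83.9%) were at their lowest among the WT libraries, against 41.8% of all tested genes, and 23 genes (74.2%) showed both, against 13.4%. The exceptions in dKO 3 were Irf1, Irf9, Stat2 and Ifi35, and those in WT 2 were Ifit2, Ifih1, Mx2, Rsad2 and Ifi35. On the scale of log2(CPM + 0.5), the median difference of dKO 3 from the mean of dKO 1 and dKO 2 was -0.45 for the 31 genes and 0.00 for all tested genes. The median difference of WT 2 from the mean of WT 1 and WT 3 was -0.56 for the 31 genes and -0.02 for all tested genes. Both libraries were therefore low for the 31 genes relative to their own group. The pattern was weaker but present in 47 other interferon-induced genes that were tested. Among those, dKO 3 was lowest for 59.6%, WT 2 for 66% and both for 38.3%, with median differences of -0.23 and -0.27. No test was made of this pattern, since libraries of a group carry no label that tells them apart.

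The drop in dKO 3 differed widely between genes. The level of dKO 3, as a percentage of the mean of dKO 1 and dKO 2, was 11.5% for Ifit3b, 18.2% for Ifit3, 21.1% for Ifit1, 22.5% for Mx2 and 32.1% for Rsad2. It was 65.3% for Ifit2, 92.1% for Bst2 and 97.4% for Stat2, so the called genes did not drop by a common factor. In WT 2, 7 of the 11 genes called higher, all 4 called lower and 15 of the 16 uncalled genes were at their lowest of the WT libraries. As a percentage of the mean of WT 1 and WT 3, the level of WT 2 was 34.4% for Rtp4, 35.5% for Gbp2, 36.3% for Ifit3, 36.9% for Ifit3b and 49.0% for Usp18, but 102% for Ifit2. The leukocyte sum was lower in dKO 3, at 84.4 CPM, than in the other dKO libraries, at 216 CPM each, but its markers did not move together. Csf1r fell to 62.7 CPM in dKO 3 from 188 and 190 CPM, and Adgre1 fell to 0. Cd68 fell less, to 13.7 CPM from 17.3 and 15.8 CPM, whereas Aif1 and Itgam stood highest in dKO 3. Among the WT libraries the sum was highest in WT 2, where Cd14 gave 37.2 of its 54.5 CPM. Cd14 had 13.9 and 12.9 CPM in WT 1 and WT 3. The part of the leukocyte markers in the result was not tested. With WT 2 and dKO 3 both left out, all 15 calls were kept and 3 genes were added: Ifit1 and Oas3 higher, and Parp14 lower, giving 13 higher and 5 lower. In that fit 10139 genes were called in all. WT 2 and dKO 3 were chosen because most genes of the list were low in them. Leaving both out narrows the spread of these genes within groups, which favours calls in advance. The kept and added calls are therefore no independent check of the calls made with all libraries. Usp18, Oasl2 and Dhx58 each lost their call in several fits with a single library left out.

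**Figure D4:**
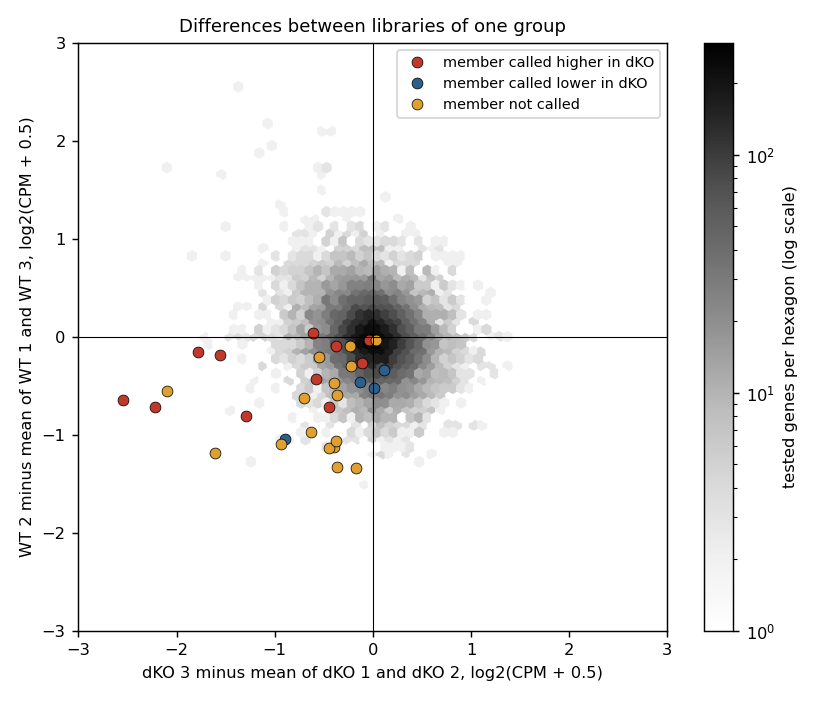
Difference of dKO 3 from the mean of dKO 1 and dKO 2 (x axis) and of WT 2 from the mean of WT 1 and WT 3 (y axis), both on log2(CPM + 0.5), with all 15807 tested genes as grey hexagons and the 31 interferon-stimulated genes as points (red called higher, blue called lower, orange not called). The grey cloud is centred on 0, while most points lie in the lower left, low in both libraries.

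Counts were also set against exon length, so that levels could be compared between genes. In dKO the order per kb of annotated exon began with Bst2 at 66.4 CPM per kb, then Ifit2 at 30.1, Isg15 at 25.4, Ifi35 at 13.8 and Irf1 at 10.4 CPM per kb. In WT it began with Bst2 at 31.8 CPM per kb, then Irf1 at 19.95, Ifi35 at 14.8 and Isg15 at 9.93 CPM per kb. Ifit2 thus stood second in dKO and in rank 14 in WT, where it reached 2.21 CPM per kb. Mx1 was last in both groups, at 0.109 CPM per kb in dKO and 0.0346 CPM per kb in WT. Neighbours in these orders were not tested against each other.

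Other genes of the interferon pathway were called lower in dKO more often than higher. Of 134 further pathway genes in 7 lists, 107 were tested, of which 19 were called higher, 49 lower and 39 not called (63.6% called, against 57.3% of all tested genes). Their median fold change was -0.49 on the log2 scale. Over all tested genes, 28.6% were called higher and 28.7% lower. The ligands were nearly absent: of 21 interferon genes, 17 were at 0 in every library, Ifnb1 included, which at the floor allows up to 0.314 CPM, and the other 4 did not exceed 1.01 CPM. The one tested ligand, Ifnz, had 0.707, 0.418 and 0.209 CPM in dKO 1, 2 and 3, against 1.01, 0.868 and 0.690 CPM in WT 1, 2 and 3, and was not called (edgeR adjusted p = 0.181).

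Of 6 receptor genes, 1 was higher and 4 were lower in dKO (83.3% called, against 57.3% of all tested genes). Ifnar1 averaged 55.6 ± 1.11 CPM in dKO and 90.2 ± 6.04 CPM in WT (SD, n = 3 each) (log2 fold change -0.70 ± 0.08, edgeR adjusted p = 7.32e-05). Ifnar2, the other type I chain, differed by -0.45 ± 0.17 on the log2 scale (edgeR adjusted p = 0.0427) and lost its call without any single library except dKO 3, with edgeR adjusted p values of up to 0.123. The type III receptor was split between its chains. Ifnlr1, its specific chain, averaged 50.04 ± 1.95 CPM in dKO and 17.2 ± 1.90 CPM in WT (log2 fold change 1.54 ± 0.11, edgeR adjusted p = 4.51e-06). Il10rb, which type III interferons share with interleukin-10, averaged 7.70 ± 0.94 CPM in dKO and 18.7 ± 1.00 CPM in WT (log2 fold change -1.28 ± 0.14, edgeR adjusted p = 6.89e-05).

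Of 5 kinase and STAT genes, 3 were lower, where 28.7% of all tested genes were called lower. Jak2, a kinase of interferon gamma signalling among others, averaged 65.4 ± 2.87 CPM in dKO and 333 ± 7.82 CPM in WT (log2 fold change -2.35 ± 0.07, edgeR adjusted p = 4.16e-08).

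Of 16 tested sensor and adaptor genes outside the list, 3 were higher, 6 lower and 7 not called (56.2% called, against 57.3%). Sting1, the adaptor of cytosolic DNA sensing, averaged 2.90 ± 0.42 CPM in dKO and 16.2 ± 3.94 CPM in WT (log2 fold change -2.48 ± 0.22, edgeR adjusted p = 1.93e-05). Its upstream enzyme Cgas did not pass, with a difference of -0.07 on the log2 scale (edgeR adjusted p = 0.692). Mavs, the adaptor of RIG-I and MDA5, and Irf3, the factor downstream of it, had log2 fold changes of -0.54 and -0.60 (edgeR adjusted p = 0.00393 and 0.00071). Adar, an RNA-editing enzyme that keeps the cell's own double-stranded RNA from being sensed, averaged 52.5 ± 3.75 CPM in dKO and 106 ± 8.52 CPM in WT (edgeR adjusted p = 1.87e-05). Tlr3, the endosomal sensor of double-stranded RNA, was higher, at 122 ± 14.9 CPM in dKO and 50.7 ± 3.37 CPM in WT (log2 fold change 1.27 ± 0.10, edgeR adjusted p = 1.16e-05).

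Of 15 negative regulators, 3 were higher and 6 lower (60% called, against 57.3% of all tested genes). Socs3, a feedback inhibitor of JAK kinases, averaged 8.42 ± 1.05 CPM in dKO and 36.4 ± 2.87 CPM in WT (log2 fold change -2.11 ± 0.13, edgeR adjusted p = 2.26e-06). Samhd1, a nucleotide-cleaving restriction factor, averaged 157 ± 5.30 CPM in dKO and 78.5 ± 3.00 CPM in WT (log2 fold change 1.00 ± 0.07, edgeR adjusted p = 3.8e-06). Of 47 further interferon-induced genes tested, 10 were higher, 22 lower and 15 not called (68.1% called, against 57.3%). Among the 31 genes, 11 were higher, 4 lower and 16 not called. The difference between the lists was not tested, and both lists were chosen with earlier results of these data known. Ifitm3, which encodes a membrane protein that blocks virus entry, averaged 40.8 ± 4.65 CPM in dKO and 346 ± 16.7 CPM in WT (log2 fold change -3.09 ± 0.10, edgeR adjusted p = 5.58e-08). Ifi30, a lysosomal thiol reductase gene, averaged 62.5 ± 8.07 CPM in dKO and 18.1 ± 3.32 CPM in WT (edgeR adjusted p = 1.3e-05). Cxcl10, a chemokine gene and a usual readout of interferon signalling, had 1.26, 1.87 and 0.535 CPM in dKO 1, 2 and 3, against 0.162, 0.372 and 0.798 CPM in WT 1, 2 and 3, and was not called (edgeR adjusted p = 0.102).

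Of 17 antigen presentation genes, 1 was higher and 8 were lower (52.9% called, against 57.3% of all tested genes). H2-T23, a nonclassical class I gene, averaged 39.6 ± 1.07 CPM in dKO and 124 ± 9.001 CPM in WT (log2 fold change -1.65 ± 0.08, edgeR adjusted p = 5.82e-07). Erap1, a peptide-trimming protease gene, averaged 45.3 ± 2.202 CPM in dKO and 28.5 ± 6.21 CPM in WT (log2 fold change 0.67 ± 0.15, edgeR adjusted p = 0.00455).

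**Figure D5:**
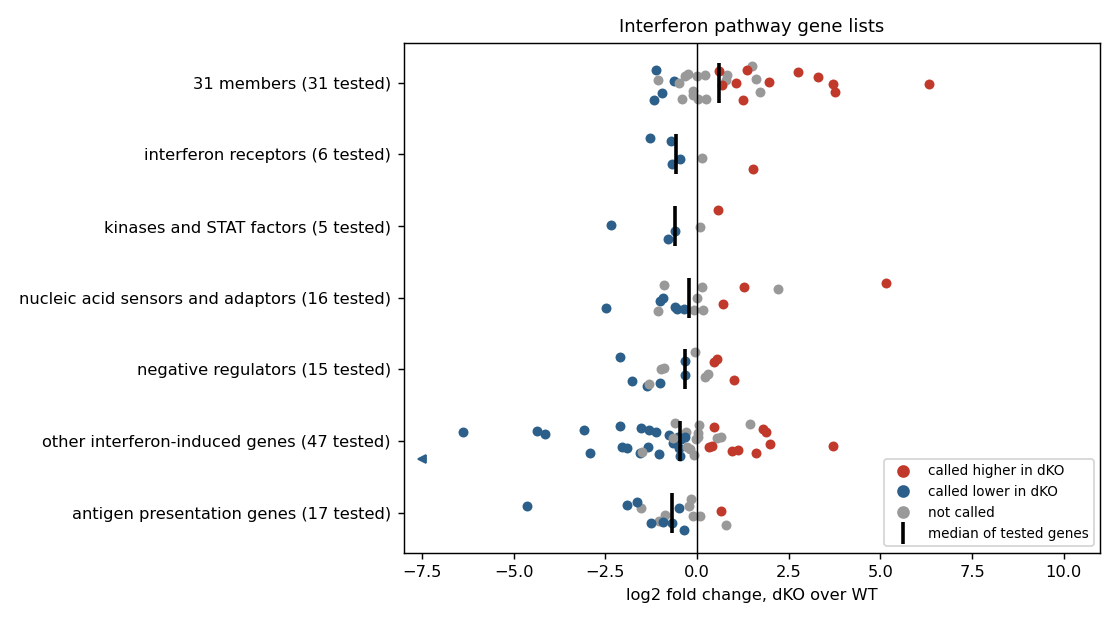
Fitted log2 fold change, dKO over WT, of each tested gene in the 31-gene list and in 6 further interferon pathway lists (rows; the vertical position within a row is random), with a black bar at the median; red is called higher, blue called lower and grey not called, and the triangle at the left edge is 1 gene past the axis, at 0 in every dKO library. The median of the 31 genes is above 0 at 0.59 (0.24 to 0.64 over the alternatives tried), and the medians of the other lists are below 0.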

How the data were processed

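RNA-seq of 6 spheroid libraries was analysed, grouped by the genotype in their titles. The authors deposited raw estimated counts per gene, as whole numbers. The submitters' processing notes name HISAT2 2.2.1, StringTie 2.2.1 and build GRCm38. How reads were counted, with which annotation release and whether by strand, is not given in the sources used here. Symbols came from GENCODE M21, and promoters from RefSeq GRCm38.p6. The 31 genes, the other lists and the naming rule were chosen with earlier results of these data known. The rule gave every called gene, 6 fixed ones and, in other lists, 8 fixed genes plus Cxcl10 and the smallest adjusted p in each direction. Of these, 1 gene is not reported here.

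The test was that of edgeR 4.0.16, run in R 4.3.3 (TMM, filterByExpr, robust quasi-likelihood F-test, genotype as the only term), with Benjamini-Hochberg adjustment over 15807 genes and calls under 0.05. SE is the absolute log2 fold change over the square root of F. The test was checked on simulated data, where it called 34.3% of 1.5-fold, 68.7% of 2-fold and 87.9% of 4-fold changes. Far fewer genes were changed there than were called here. A gene that was not called may therefore still differ. Exons of 12 of the 31 genes overlap another gene. The alternatives included DESeq2 1.42.0, other scalings and filters, and libraries left out. The floor covers counting error only.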

Additional observations from a re-analysis of the deposited data

How the results depend on the processing

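Under the 17 alternatives no called gene named in the text changed direction, but 6 uncalled named genes crossed 0 with 1 library left out, with log2 fold changes of -0.26 to 0.21 for Irf7, -0.0158 to 0.11 for Ddx58, -0.19 to 0.00317 for Cgas, -0.11 to 0.64 for Gbp2, -0.13 to 0.52 for Rtp4 and -0.64 to 0.11 for Gbp3; without WT 2 and dKO 3, Irf7 and Rtp4 were at -0.07 and -0.07. Of the 15 called genes of the list, 9 were called in all of those that tested them. Irf9, Stat2 and Ifih1 lost their call only when tested against a 1.5-fold change; Oasl2, Dhx58 and Usp18 lost theirs under several. Counting at an adjusted p under 0.01 left 2 genes of the list lower, and testing against a 1.5-fold change left 1, with 9 higher and 27 lower in the other pathway lists and 4556 called over all genes. The median log2 fold change of the list was 0.24 with a mean of at least 5 CPM required and 0.24 with counts divided by 4, both of which test fewer of its genes (23 and 29). Leaving out 1 library at a time gave 8041 to 9120 called genes, 10 to 12 higher and 2 to 6 lower in the list, 15 to 21 higher and 41 to 49 lower in the other lists, and a median of 0.27 to 0.64. The labels do not say whether replicate numbers pair these libraries. Deviations of same-numbered libraries correlated at -0.06, 0.05 and 0.08 for numbers 1, 2 and 3. The same-numbered WT library was the best match for dKO 2 and dKO 3, but values this weak do not settle pairing. With the number as a replicate block, 10 of the 31 genes were higher and 3 lower, as Dhx58 and Usp18 were no longer called. In that fit 8658 genes were called in all. Depth limits the genes near the floor: 5 of the 31 had at least 1 library at or under it.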
